A study of Mus musculus with 12 samples.

Results

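The Wnt ligands, their receptors and the proteins that lipidate and export them were followed in inguinal white adipose tissue (iWAT) as a group of 36 genes. These were 19 Wnt genes, 10 Frizzled genes, the co-receptors Lrp5 and Lrp6, the alternative receptors Ror1, Ror2 and Ryk, and the secretion genes Porcn and Wls. Members were set by a rule on gene symbols alone, though written with earlier results of these data known, from the 54134 genes of the count table. At least 1 read was found for 35 of the 36 members, Wnt3a being the exception, and 23 had enough reads to be tested.

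The comparison was between 6 AAV-Notum and 6 AAV-GFP mice, all male C57BL/6J animals, each giving 1 RNA-seq library. An adeno-associated virus (AAV, serotype 8) was injected into the tail vein at 8 weeks of age and carried either mouse Notum or GFP behind the thyroxine binding globulin promoter, which directs expression to the liver. Both groups therefore carried a virus, and uninjected mice are not analysed here. The mice ate chow for 4 weeks and were fasted for 4 h before iWAT was taken. Fat cells were not the target of the virus, so the comparison asks how iWAT RNA differed when the liver was made to secrete NOTUM. Each library came from a piece of whole fat pad, in which fewer cells of a type and less RNA per cell cannot be told apart.

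Wnt proteins are secreted signals. In the endoplasmic reticulum the acyltransferase PORCN attaches a palmitoleate chain to them, and the carrier WLS escorts the lipidated protein to the cell surface. There the lipid docks into the cysteine-rich domain of a Frizzled receptor, and a co-receptor, LRP5 or LRP6, joins the complex to stabilise β-catenin, while ROR1, ROR2 and RYK transmit signals that often do not use β-catenin. NOTUM is a secreted hydrolase that removes the palmitoleate and so inactivates the ligand. In fat, Wnt signalling is known for restraining the differentiation of preadipocytes.

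Among the 23 tested members, Fzd1, Fzd4, Fzd5, Lrp5 and Lrp6 were lower in AAV-Notum mice at an unadjusted p under 0.05 (edgeR's quasi-likelihood test), with mean levels that differed by -22.4% to -49.0%. All 5 are receptors or co-receptors. No ligand and neither secretion gene was among them, and 0 members were higher in edgeR, DESeq2 or limma-voom. These 5 make 21.7% of the tested members, beside 9.54% of all 15585 tested genes that were lower and 4.64% that were higher at the same threshold. After Benjamini-Hochberg adjustment over all tested genes, 0 members passed 0.05 with edgeR or limma-voom (0.0513% of all genes passed as lower and 0% as higher with edgeR), and with DESeq2 Fzd1 and Lrp6, 2 members, did, where 2.32% of all genes passed as lower and 0.531% as higher. On a single set of simulated counts DESeq2 found more of the changed genes than edgeR or limma-voom and also made a larger share of false calls. Those counts were drawn independently for each gene with edgeR's dispersions. They therefore cannot decide whether the DESeq2 calls of Fzd1 and Lrp6 are false. The median log2 fold change of the tested members was -0.25, against 0.01 over all tested genes, and 17 of the 23 had a negative value, beside 48.8% of all genes.

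The libraries held 14711113 to 21618860 counts, and total counts did not differ detectably between groups (two-sided exact permutation test over mice, p = 0.279). RNA integrity numbers were 5.7 to 7.6 in AAV-GFP mice and 6.9 to 7.4 in AAV-Notum mice, and RNA of AAV-GFP-2012 was isolated 20 days after that of the other mice. All 10 adipocyte markers were measured, and their summed level was 37478 to 65497 CPM (reads scaled to library size) across AAV-GFP mice and 33991 to 77348 CPM across AAV-Notum mice. Of these markers 8 had a negative log2 fold change, 0 at an unadjusted p under 0.05 in edgeR. Markers of lymphocytes stood apart in some controls. The mean log2 CPM of 15 lymphoid markers was -0.48 in AAV-GFP-2014, 0.22 in AAV-GFP-2011 and 3.75 in AAV-GFP-2012, against 6.28 to 6.89 in the other AAV-GFP mice and 5.22 to 7.26 in AAV-Notum mice (exact permutation p = 0.0866). All 15 lymphoid genes had a positive log2 fold change, 0 of them at an unadjusted p under 0.05, and their summed level was 10.5 to 1973 CPM in AAV-GFP mice and 628 to 2710 CPM in AAV-Notum mice. Of 10 hepatocyte markers, 9 had a negative log2 fold change, 3 of them at an unadjusted p under 0.05, with a summed level of 2088 to 8778 CPM in AAV-GFP mice and 1572 to 7011 CPM in AAV-Notum mice. Their mean log2 CPM was 0.12 to 8.35 in AAV-GFP mice and 0.20 to 5.80 in AAV-Notum mice. AAV-Notum-2042, at 7011 CPM in sum, had the lowest mean of its group, so the sum does not follow the mean. All 8 skeletal muscle markers had a positive log2 fold change, 0 at an unadjusted p under 0.05, and their summed level was 3700 CPM in AAV-Notum-2042, 9.42 to 784 CPM across AAV-GFP mice and 9.56 to 538 CPM across the other AAV-Notum mice. The mean of their log2 CPM had the opposite direction, at 3.04 in AAV-GFP and 2.68 in AAV-Notum mice. All 8 Schwann and nerve markers had a negative one, 1 at an unadjusted p under 0.05, with a summed level of 131 to 338 CPM across AAV-GFP mice and 104 to 334 CPM across AAV-Notum mice, highest in AAV-Notum-2042. Of 10 adipose progenitor markers, 7 had a negative log2 fold change and 3 an unadjusted p under 0.05, with a summed level of 1660 to 2894 CPM across AAV-GFP mice and 1525 to 1919 CPM across AAV-Notum mice. Of 8 mural and 10 macrophage markers, 5 and 6 had a negative one, and 2 of each list had an unadjusted p under 0.05 as lower. Summed levels were 420 to 636 and 393 to 574 CPM for mural markers, and 521 to 1592 and 927 to 1758 CPM for macrophage markers, in AAV-GFP and AAV-Notum mice. The parts of these cell types in the results were not tested. The lymphoid score (mean log2 CPM of the 15 markers) averaged 3.89 in AAV-GFP and 6.57 in AAV-Notum mice. The fits below that use it as a covariate therefore cannot fully separate group from lymphoid content.

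Notum itself, the gene carried by the virus, was low in the iWAT of most mice. Reads of Notum numbered 1 to 17 in AAV-GFP mice, 8 to 16 in 4 AAV-Notum mice, 560 in AAV-Notum-2032 and 433 in AAV-Notum-2041. The groups overlapped, and the log2 fold change of 4.64 (SE 1.32, adjusted p = 0.168 from edgeR) rested on those 2 mice. Since the liver was the target, iWAT reads do not check the group labels.

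To set genes side by side, levels were divided by the exon length of each gene, giving CPM per kilobase. Fzd4 was the member with the highest level per length in AAV-GFP mice, at 88.7 ± 40.9 CPM per kilobase (SD, n = 6). Ryk (16.8 ± 4.42), Lrp6 (15.3 ± 2.87), Lrp5 (11.5 ± 2.75), Fzd1 (11.2 ± 2.10) and Wls (10.1 ± 2.11) followed. Lrp6 lay above Lrp5 by more than the SD of either, Fzd4 lay above Ryk by more than the SD of either, and the other neighbours among these 6 differed by less than the SD between mice. Below them came Fzd7 (4.51 ± 1.37), Porcn (4.02 ± 1.37) and Wnt5a (3.70 ± 1.37), which again lay within an SD of each other. Fzd4 held 80.9% of the summed Frizzled level per length in AAV-GFP mice and 74.6% in AAV-Notum mice, and Fzd1 held 10.2% and 11.9%. Wnt5a held 43.5% of the summed ligand level per length in AAV-GFP mice and 39.5% in AAV-Notum mice. Ryk held 95.7% of the alternative receptors, Lrp6 57.2% of the co-receptors and Wls 71.6% of the secretion genes in AAV-GFP mice.

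**Figure D1:**
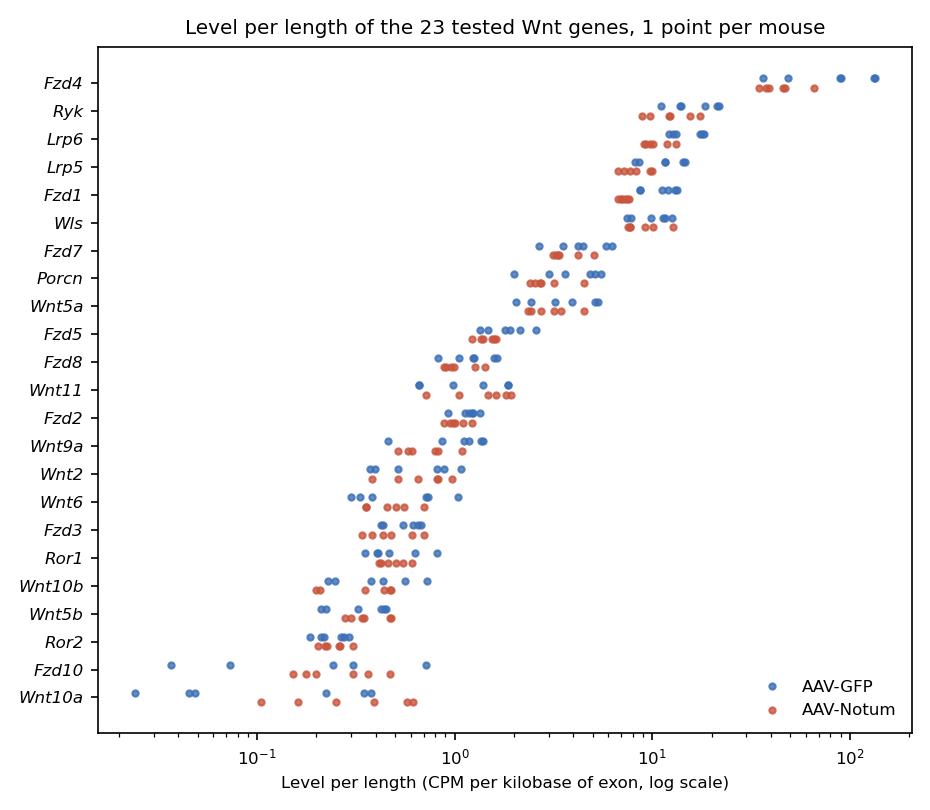
Level of each tested member per length of exon (CPM per kilobase, log axis) in the 6 AAV-GFP and the 6 AAV-Notum mice, 1 point per mouse. Fzd4 lies far above every other receptor and Wnt5a leads the ligands; the AAV-GFP-2011 point of Fzd10 is 0 and cannot be drawn on a log axis.

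Frizzled proteins are the primary receptors, spanning the membrane and binding the Wnt lipid from outside. Fzd4, which also serves as the receptor for Norrin in blood vessels, had the most negative log2 fold change of the 23 tested members. Its level was 891 CPM in AAV-GFP-2011, 601 in AAV-GFP-2012, 327 in AAV-GFP-2013, 904 in AAV-GFP-2014, 610 in AAV-GFP-2021 and 244 in AAV-GFP-2022 (596 ± 275, SD, n = 6). It was 233 CPM in AAV-Notum-2031, 264 in AAV-Notum-2032, 311 in AAV-Notum-2033, 252 in AAV-Notum-2034, 318 in AAV-Notum-2041 and 445 in AAV-Notum-2042 (304 ± 76.6, SD, n = 6). AAV-GFP-2013 and AAV-GFP-2022 lay among the AAV-Notum mice, and the other 4 AAV-GFP mice lay above all 6 of them. The log2 fold change was -0.97 (SE 0.31, unadjusted p = 0.00801, adjusted p = 0.214, edgeR; exact permutation p = 0.0346). With the lymphoid score as a covariate it was -0.35 (unadjusted p = 0.104), and without AAV-GFP-2011 and AAV-GFP-2014, which had the lowest lymphoid scores, it was -0.56 (unadjusted p = 0.0680). AAV-GFP-2011 and AAV-GFP-2014 also had the highest Fzd4 levels, so leaving them out lessens the difference by the choice of mice. The adipocyte score, as a covariate chosen after the data were seen, gave -0.57 (unadjusted p = 0.00160). Of 10 endothelial markers, 9 had a negative log2 fold change, 3 of them at an unadjusted p under 0.05, and their summed level was 733 to 1167 CPM across AAV-GFP mice and 678 to 929 CPM across AAV-Notum mice. The part of endothelial cells in the Fzd4 result was not tested.

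Fzd1, a Frizzled that can signal through β-catenin, was the member whose groups did not overlap. Its level was 55.0, 50.6, 36.3, 56.1, 47.2 and 36.3 CPM in the AAV-GFP mice, listed in the same order from here on (46.9 ± 8.83, SD, n = 6). It was 29.4, 29.7, 28.4, 30.7, 32.1 and 31.2 CPM in AAV-Notum mice (30.2 ± 1.36, SD, n = 6). All 6 AAV-Notum mice lay below all 6 AAV-GFP mice, which 0.693% of all tested genes showed in this direction and 0.398% in the other. The AAV-Notum mice spanned a 1.13-fold range and the AAV-GFP mice a 1.55-fold range. The log2 fold change was -0.63 (SE 0.12, unadjusted p = 1.34e-04, adjusted p = 0.0906, edgeR), and the exact permutation p of 0.00216 is the smallest that 6 mice against 6 allow. DESeq2 gave an adjusted p of 4.08e-04. With the lymphoid score as a covariate the Fzd1 log2 fold change was -0.43 (unadjusted p = 2.71e-04, edgeR) and -0.50 without AAV-GFP-2011 and AAV-GFP-2014 (unadjusted p = 8.24e-04, edgeR). Leaving out AAV-GFP-2013 or AAV-GFP-2022 took the adjusted p of edgeR to 0.0400 and 0.0191, and leaving out each of the other 10 mice gave 0.101 to 0.243.

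Fzd5, a Frizzled with roles in eye and gut, was expressed at a lower level. Its level was 17.8, 12.4, 10.2, 14.9, 13.2 and 9.30 CPM in AAV-GFP mice (13.0 ± 3.13, SD, n = 6) and 9.45, 11.2, 11.0, 9.62, 8.49 and 10.7 CPM in AAV-Notum mice (10.1 ± 1.05, SD, n = 6). AAV-GFP-2013 and AAV-GFP-2022 lay among the AAV-Notum mice, and the other 4 AAV-GFP mice lay above them all. The log2 fold change was -0.37 (SE 0.15, unadjusted p = 0.0341, adjusted p = 0.318, edgeR; exact permutation p = 0.0541). In 6 of the 12 fits that each left out 1 mouse, Fzd5 kept an unadjusted p under 0.05. It did not with the RNA integrity number (log2 fold change -0.23), the lymphoid score (-0.11) or the adipocyte score (-0.24) as a covariate, with the reads recovered from the normalized table (-0.35) or without AAV-GFP-2011 and AAV-GFP-2014 (-0.17). Of its exon length, 17.8% is shared with Gm38058 on the opposite strand, which had 0 to 7 reads per mouse, and whether the counting used strand is not given in the sources used here.

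**Figure D2:**
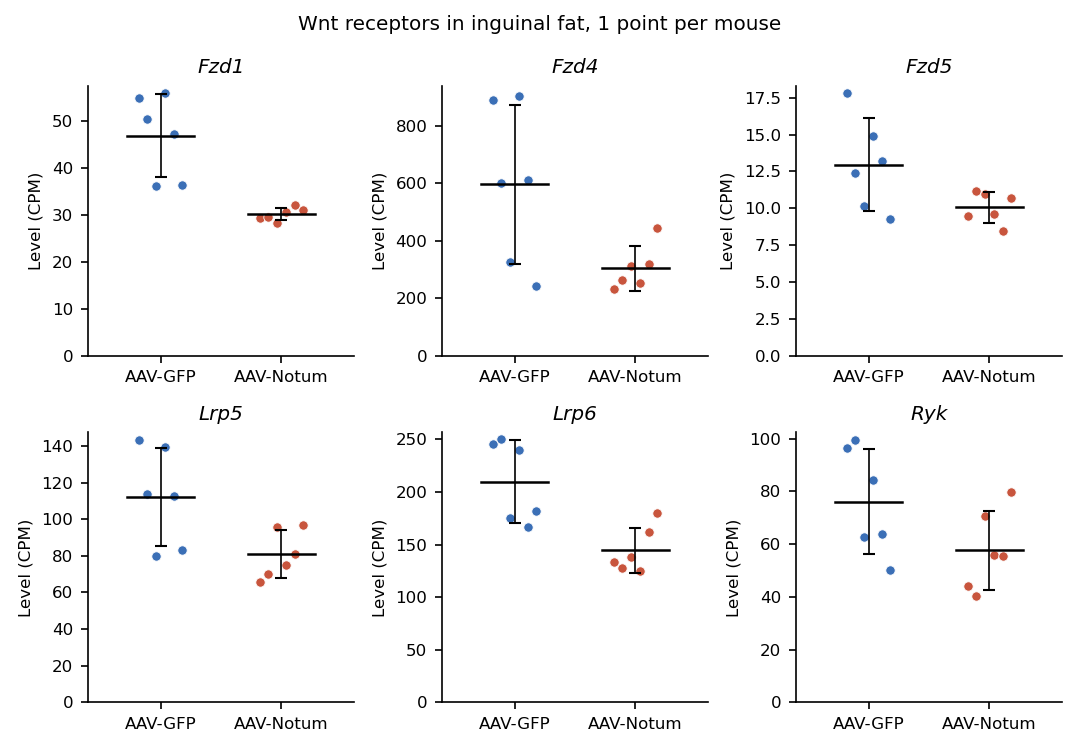
Level in CPM of Fzd1, Fzd4, Fzd5, Lrp5, Lrp6 and Ryk, 1 point per mouse, with the group mean and SD of 6 mice. The AAV-Notum points of Fzd1 lie between 28.4 and 32.1 CPM, all below the AAV-GFP points, and the groups overlap in the other panels.

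To show what lies in front of these 3 receptor genes, the bases from 250 to 12 before the start in RefSeq (GRCm38.p6) are printed, 5′ to 3′ on the strand of the gene. For Fzd1 that start lies upstream of the GENCODE gene start. Capitals mark the TCF/LEF letters ACAAAG or TCAAAG and the GC box letters GGGCGG, searched on both strands, with matches allowed to overlap.
Fzd1 (chr5:4758228-4758466, minus strand): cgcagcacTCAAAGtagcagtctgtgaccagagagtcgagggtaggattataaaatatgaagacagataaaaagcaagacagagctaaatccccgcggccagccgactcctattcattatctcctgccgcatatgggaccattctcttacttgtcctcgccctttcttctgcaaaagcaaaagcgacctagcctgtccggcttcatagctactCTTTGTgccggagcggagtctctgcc
Fzd4 (chr7:89404116-89404354, plus strand): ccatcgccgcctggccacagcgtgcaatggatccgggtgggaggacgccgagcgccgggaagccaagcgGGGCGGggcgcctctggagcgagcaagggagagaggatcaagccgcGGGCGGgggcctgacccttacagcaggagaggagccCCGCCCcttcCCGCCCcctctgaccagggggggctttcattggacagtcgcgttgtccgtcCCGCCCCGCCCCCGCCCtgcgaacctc
Fzd5 (chr1:64737762-64738000, minus strand): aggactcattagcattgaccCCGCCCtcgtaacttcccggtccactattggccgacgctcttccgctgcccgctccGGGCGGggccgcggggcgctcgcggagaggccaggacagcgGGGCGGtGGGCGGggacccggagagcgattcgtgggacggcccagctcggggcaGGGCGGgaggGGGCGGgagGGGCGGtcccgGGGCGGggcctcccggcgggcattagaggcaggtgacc
TCF and LEF are the DNA-binding partners of β-catenin, and the GC box is bound by SP-family factors. In the full window of 300 bases, 250 before and 50 after the start, Fzd1 had 2 TCF/LEF matches and 0 GC boxes, Fzd4 had 0 and 8, and Fzd5 had 0 and 10. RefSeq gave 28 windows for 25 members. The TCF/LEF letters were found in 8 of the 28 (28.6%), beside 31.2% of all 32851 windows. The GC box was found in 23 of the 28 (82.1%), beside 35.7% of all windows, and the member windows were richer in G and C, with a median of 71.0% against 52.7%. Fzd1, at 54.0%, was closer to the median of all windows than Fzd4 (72.7%) or Fzd5 (75.7%). A match describes letters, not binding.

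The remaining Frizzled genes passed no threshold. Fzd2, Fzd3, Fzd7 and Fzd8 had log2 fold changes of -0.20, -0.19, -0.27 and -0.24, with unadjusted p from edgeR of 0.156, 0.356, 0.212 and 0.226. With the lymphoid score Fzd3, Fzd7 and Fzd8 turned to 0.07, 0.12 and 0.07. Fzd7, the most abundant of them per length, was 20.4 ± 6.21 CPM in AAV-GFP and 17.0 ± 3.45 CPM in AAV-Notum mice (SD, n = 6 each). Fzd10 was scarce and uneven, with 0 reads in AAV-GFP-2011, 2 in AAV-GFP-2014, 4 in AAV-GFP-2012 and 38 in AAV-GFP-2022, and its log2 fold change of 0.29 had an SE of 0.72. It ran from 0.03 without AAV-GFP-2011 to 1.05 without AAV-GFP-2022, limma-voom gave 1.27, and it turned to -0.50 with the lymphoid score and -0.25 without AAV-GFP-2011 and AAV-GFP-2014. AAV-GFP-2011, AAV-GFP-2014 and AAV-GFP-2012 were also the 3 mice with the lowest lymphoid scores. Fzd6, with 3 to 12 reads per mouse, and Fzd9, with 0 to 12, were under the filter on low counts.

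The co-receptors LRP5 and LRP6 are single-pass proteins whose cytoplasmic tails bind AXIN once a Wnt has engaged Frizzled. Lrp6 was 246, 250, 175, 240, 167 and 182 CPM in AAV-GFP mice (209.8 ± 39.2, SD, n = 6) and 133, 128, 138, 125, 162 and 180 CPM in AAV-Notum mice (144 ± 21.7, SD, n = 6). Of the AAV-Notum mice, 5 lay below every AAV-GFP mouse, and AAV-Notum-2042, the highest, lay above AAV-GFP-2013 and AAV-GFP-2021. The log2 fold change of Lrp6 was -0.54 (SE 0.14, unadjusted p = 0.00184, adjusted p = 0.142, edgeR; exact permutation p = 0.00649). DESeq2 gave Lrp6 an adjusted p of 0.0141. With the lymphoid score as a covariate the log2 fold change of Lrp6 was -0.32 (unadjusted p = 0.0116, edgeR), and without AAV-GFP-2011 and AAV-GFP-2014 it was -0.42 (unadjusted p = 0.0128, edgeR).

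Lrp5, which is also known for setting bone mass, was 143, 113, 80.0, 139, 113 and 83.2 CPM in AAV-GFP mice (112 ± 26.8, SD, n = 6). In AAV-Notum mice it was 65.6, 70.2, 95.6, 75.0, 81.2 and 97.0 CPM (80.8 ± 13.1, SD, n = 6). AAV-GFP-2013 and AAV-GFP-2022 were again the low controls, and 3 AAV-Notum mice lay below them. Lrp5 had a log2 fold change of -0.47 (SE 0.16, unadjusted p = 0.0131, adjusted p = 0.236, edgeR; exact permutation p = 0.0346). It was -0.18 with the lymphoid score as a covariate (unadjusted p = 0.144) and -0.27 without AAV-GFP-2011 and AAV-GFP-2014 (unadjusted p = 0.0968), both from edgeR.

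These genes are spread over the genome (GRCm38, GENCODE vM21). Fzd1 (ENSMUSG00000044674) is a gene of 1 exon at chr5:4753839-4758035, Fzd4 (ENSMUSG00000049791) lies at chr7:89404355-89413134 and Fzd5 (ENSMUSG00000045005) at chr1:64730558-64737751. Lrp5 (ENSMUSG00000024913) lies at chr19:3584828-3686564 and Lrp6 (ENSMUSG00000030201) at chr6:134446476-134566965. Each value is 1 count per gene, which does not separate coding from untranslated exons.

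Of the alternative receptors, Ryk, a receptor with an inactive kinase domain, was the abundant one. It was 96.3, 99.4, 62.7, 84.2, 63.8 and 50.4 CPM in AAV-GFP mice (76.1 ± 20.0, SD, n = 6) and 44.1, 40.5, 70.5, 55.7, 55.4 and 79.6 CPM in AAV-Notum mice (57.7 ± 15.1, SD, n = 6). The groups overlapped, with AAV-Notum-2042 above 3 AAV-GFP mice and the other 3 AAV-GFP mice above every AAV-Notum mouse. The log2 fold change was -0.40 (SE 0.20, unadjusted p = 0.0730, edgeR; exact permutation p = 0.104). The adipocyte score as a covariate took it to -0.21 with an unadjusted p of 0.0302 (edgeR). The lymphoid score took it to -0.09, and without AAV-GFP-2011 and AAV-GFP-2014 it was -0.26, neither with an unadjusted p under 0.05. Ror1 and Ror2, tyrosine kinase receptors for WNT5A, were at 2.95 ± 1.01 and 1.02 ± 0.179 CPM in AAV-GFP mice and at 2.84 ± 0.433 and 1.05 ± 0.157 CPM in AAV-Notum mice (SD, n = 6). Their log2 fold changes of -0.06 (SE 0.21) and 0.04 (SE 0.17) changed sign when single mice were left out.

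**Figure D3:**
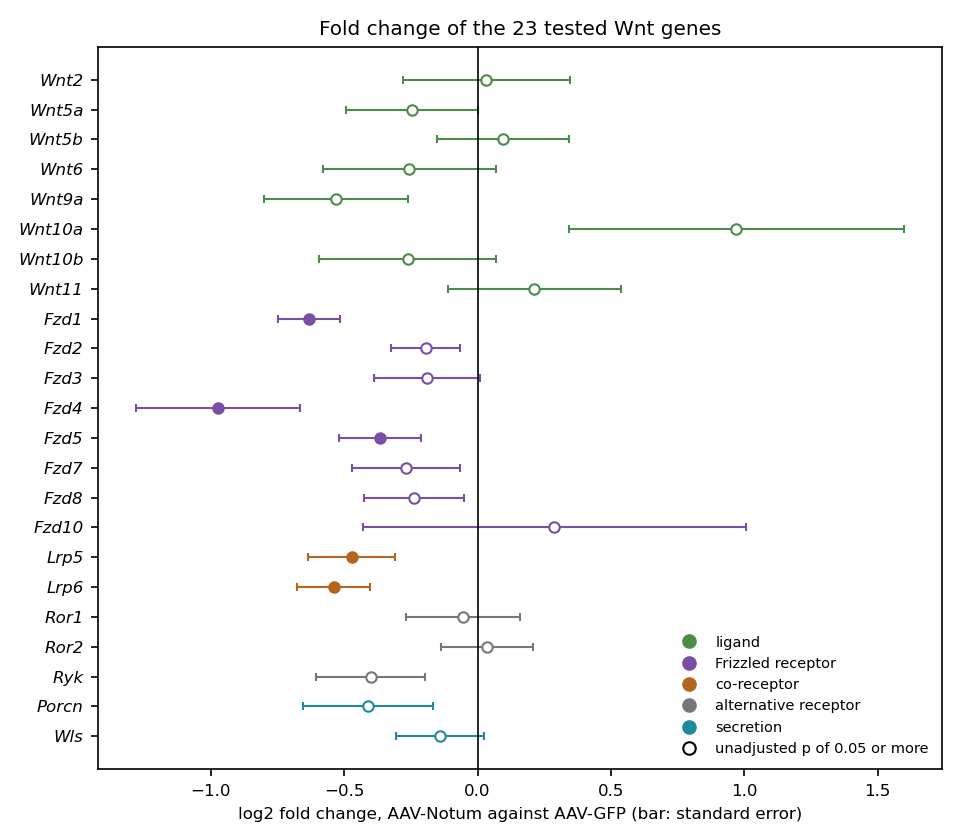
Log2 fold change of each tested member (AAV-Notum over AAV-GFP) with its standard error from edgeR, grouped by role. Fzd4 (-0.97), Fzd1 (-0.63), Lrp6 (-0.54), Lrp5 (-0.47) and Fzd5 (-0.37) had an unadjusted p under 0.05.

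The ligands were not tested as a group. Of the 19 ligand genes, 8 were tested singly, 4 with a negative and 4 with a positive log2 fold change in the edgeR fit without covariates. At an unadjusted or adjusted p under 0.05, 0 of them passed in edgeR, DESeq2 or limma-voom. Of all tested genes, 9.54% were lower and 4.64% higher at the unadjusted threshold in edgeR. With 8 genes, 0 is near those shares and is not read as a result about the ligands. Their summed level per length was 7.32 to 9.43 CPM per kilobase in AAV-GFP mice and 7.01 to 8.55 in AAV-Notum mice. Wnt5a, a ligand best known for β-catenin-independent signalling, was 40.5, 25.4, 19.1, 41.6, 30.9 and 16.0 CPM in AAV-GFP mice (28.9 ± 10.7, SD, n = 6). It was 18.5, 21.4, 24.9, 19.2, 27.0 and 35.3 CPM in AAV-Notum mice (24.4 ± 6.30, SD, n = 6). The groups overlapped over most of their range, and the log2 fold change was -0.25 (SE 0.25, unadjusted p = 0.341, edgeR; exact permutation p = 0.478), turning to 0.21 with the lymphoid score as a covariate and 0.09 without AAV-GFP-2011 and AAV-GFP-2014.

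Wnt11, another ligand of the β-catenin-independent kind, ran the other way across mice. Its lowest levels were 2.74 and 2.75 CPM in AAV-GFP-2014 and AAV-GFP-2011 and 2.98 CPM in AAV-Notum-2042, the AAV-GFP median was 4.91 CPM and the AAV-Notum median 6.39 CPM. The group means of Wnt11 were 5.13 ± 2.31 and 5.94 ± 1.93 CPM (SD, n = 6), with a log2 fold change of 0.21 (SE 0.32, unadjusted p = 0.522, edgeR). It turned to -0.30 with the lymphoid score, -0.04 with the adipocyte score and -0.09 without AAV-GFP-2011 and AAV-GFP-2014. Wnt9a was the ligand of smallest p. It was 4.54, 3.93, 2.87, 4.65, 3.74 and 1.54 CPM in AAV-GFP mice and 2.74, 1.94, 1.72, 2.04, 2.65 and 3.63 CPM in AAV-Notum mice, where AAV-GFP-2022 was the lowest of all 12 and AAV-Notum-2042 the highest of its group. Its log2 fold change of -0.53 (SE 0.27, unadjusted p = 0.0714, adjusted p = 0.382, edgeR; exact permutation p = 0.119) passed an unadjusted 0.05, among the fits that left out 1 mouse, only without either of those 2. It was -0.15 with the lymphoid score, -0.29 with the adipocyte score, -0.35 with the RNA integrity number and -0.31 without AAV-GFP-2011 and AAV-GFP-2014.

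The ligands that in preadipocytes are known as inhibitors of adipogenesis, Wnt10b, Wnt10a and Wnt6, were all scarce here. Wnt10b was 1.46 ± 0.646 CPM in AAV-GFP and 1.22 ± 0.432 CPM in AAV-Notum mice, and Wnt6 was 1.28 ± 0.646 and 1.07 ± 0.285 CPM (SD, n = 6). Both had a log2 fold change of -0.26 with an unadjusted p of 0.445 (edgeR). That of Wnt10b ran from -0.39 to -0.05 with 1 mouse left out. It was -0.56 with the lymphoid score, -0.46 with the RNA integrity number and -0.55 without AAV-GFP-2011 and AAV-GFP-2014. Wnt10a had 2, 1, 16, 2, 12 and 14 reads in AAV-GFP mice and 19, 29, 6, 11, 23 and 4 reads in AAV-Notum mice. The 3 AAV-GFP mice with 1 or 2 reads were those with the lowest lymphoid scores, and the log2 fold change of 0.97 had an SE of 0.63 (unadjusted p = 0.147, edgeR; exact permutation p = 0.130). It was 0.19 with the lymphoid score as a covariate and 0.53 without AAV-GFP-2011 and AAV-GFP-2014. Wnt6 had a log2 fold change of -0.70 (unadjusted p = 0.00962, edgeR) with the lymphoid score as a covariate and of -0.01 without AAV-GFP-2013. Wnt2 and Wnt5b had log2 fold changes of 0.03 and 0.10, at 15 to 42 and 10 to 26 reads per mouse, which turned to -0.27 and -0.21 with the lymphoid score.

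**Figure D4:**
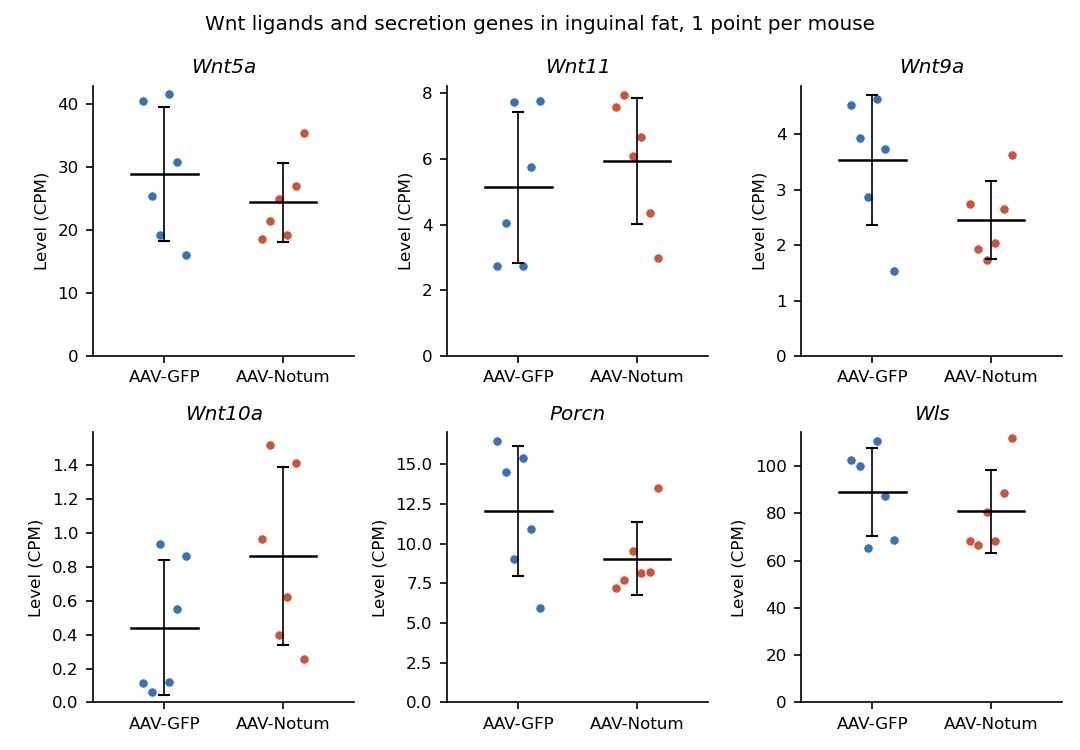
Level in CPM of Wnt5a, Wnt11, Wnt9a, Wnt10a, Porcn and Wls, 1 point per mouse, with the group mean and SD of 6 mice. The groups overlap in all 6 panels, and AAV-Notum-2042 is the highest AAV-Notum mouse for Wnt5a, Wnt9a, Porcn and Wls.

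The other 11 ligands were at or near 0. Wnt3a had 0 reads in all 12 mice, which allows at most 0.199 CPM in the shallowest library (3 counts, counting error only). Wnt1, Wnt7a, Wnt7b and Wnt8a had 0 to 2 reads per mouse. Wnt3 and Wnt16 each had 22 reads over all mice, Wnt8b 32, Wnt9b 54, Wnt2b 61 and Wnt4 62. With no filter on low counts, Wnt8b, at 22 reads in AAV-GFP and 10 in AAV-Notum mice, had an unadjusted p of 0.0409 (edgeR). Levels of scarce ligands also differed between the deposited tables, since the reads recovered from the normalized table gave 399 for Wnt2b, 108 for Wnt4 and 66 for Wnt8b.

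Some Wnt genes sit in neighbouring pairs left by old duplications, and in 2 of the 4 pairs here 1 gene was tested and the other was not. Wnt9a (25 to 81 reads per mouse) and Wnt3a (0 reads) are neighbours on chromosome 11, 16175 bp apart on opposite strands. Wnt10b (12 to 40 reads) and Wnt1 (0 to 2 reads) are 11706 bp apart on chromosome 15. Wnt6 and Wnt10a, 6193 bp apart on chromosome 1 and on the same strand, were both tested, and Wnt3 and Wnt9b, 24328 bp apart on chromosome 11, were both under the filter.

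The secretion genes serve every Wnt ligand. Porcn was 16.5, 14.5, 9.01, 15.4, 10.9 and 5.97 CPM in AAV-GFP mice (12.1 ± 4.10, SD, n = 6) and 7.22, 7.70, 9.55, 8.15, 8.24 and 13.5 CPM in AAV-Notum mice (9.06 ± 2.32, SD, n = 6). AAV-Notum-2042 stood above the other 5 AAV-Notum mice, which lay between 7.22 and 9.55 CPM, and AAV-GFP-2022 was the lowest of all. AAV-Notum-2042 was also the mouse highest in skeletal muscle markers, whose part in its levels was not tested. The log2 fold change was -0.41 (SE 0.24, unadjusted p = 0.116, edgeR; exact permutation p = 0.201). It turned to 0.03 with the lymphoid score, and was -0.14 with the adipocyte score and -0.16 without AAV-GFP-2011 and AAV-GFP-2014. Wls was 102, 99.8, 65.5, 110, 87.1 and 68.7 CPM in AAV-GFP mice (89.0 ± 18.6, SD, n = 6) and 68.3, 66.7, 80.7, 68.3, 88.8 and 112 CPM in AAV-Notum mice (80.8 ± 17.5, SD, n = 6). AAV-Notum-2042 was the highest of all mice and AAV-GFP-2013 the lowest. The group means of Wls differed by less than the SD of either group, with a log2 fold change of -0.14 (SE 0.17, unadjusted p = 0.413, edgeR; exact permutation p = 0.463). It turned to 0.13 with the lymphoid score, 0.02 with the adipocyte score and 0.01 without AAV-GFP-2011 and AAV-GFP-2014.

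Leaving out AAV-GFP-2022 or AAV-Notum-2042 raised the number of members lower at an unadjusted p under 0.05 from 5 to 8, adding Wnt9a, Ryk and Porcn each time. The share of all genes that were lower rose as well, from 9.54% to 13.6% without AAV-GFP-2022 and to 13.4% without AAV-Notum-2042. Those mice also had adipocyte scores (mean log2 CPM of the 10 markers) at opposite ends of their groups, 10.5 in AAV-GFP-2022, the lowest AAV-GFP mouse, and 11.6 in AAV-Notum-2042, the highest AAV-Notum mouse. Their lymphoid scores were at opposite ends too, 6.89 in AAV-GFP-2022, the highest AAV-GFP mouse, and 5.22 in AAV-Notum-2042, the lowest AAV-Notum mouse. With the adipocyte score as a covariate, 5 members passed, namely Fzd1, Fzd4, Lrp5, Lrp6 and Ryk, beside 9.42% of all genes lower and 10.6% higher, and Fzd1 (adjusted p = 0.0168) and Lrp6 (adjusted p = 0.0381) passed after adjustment, as did 1.08% of all genes as lower (edgeR). With the lymphoid score as a covariate, 3 members passed as lower, Fzd1, Lrp6 and Wnt6, beside 4.87% of all genes, and 0 as higher, beside 4.25%. Without AAV-GFP-2011 and AAV-GFP-2014, only Fzd1 and Lrp6 passed, beside 4.95% of all genes lower. Those mice were also the highest controls for Fzd1, Fzd4, Fzd5 and Lrp5, so leaving them out lessens those differences by the choice of mice. Fzd1 and Lrp6 had an unadjusted p under 0.05 in each of the fits listed among the alternatives.

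**Figure D5:**
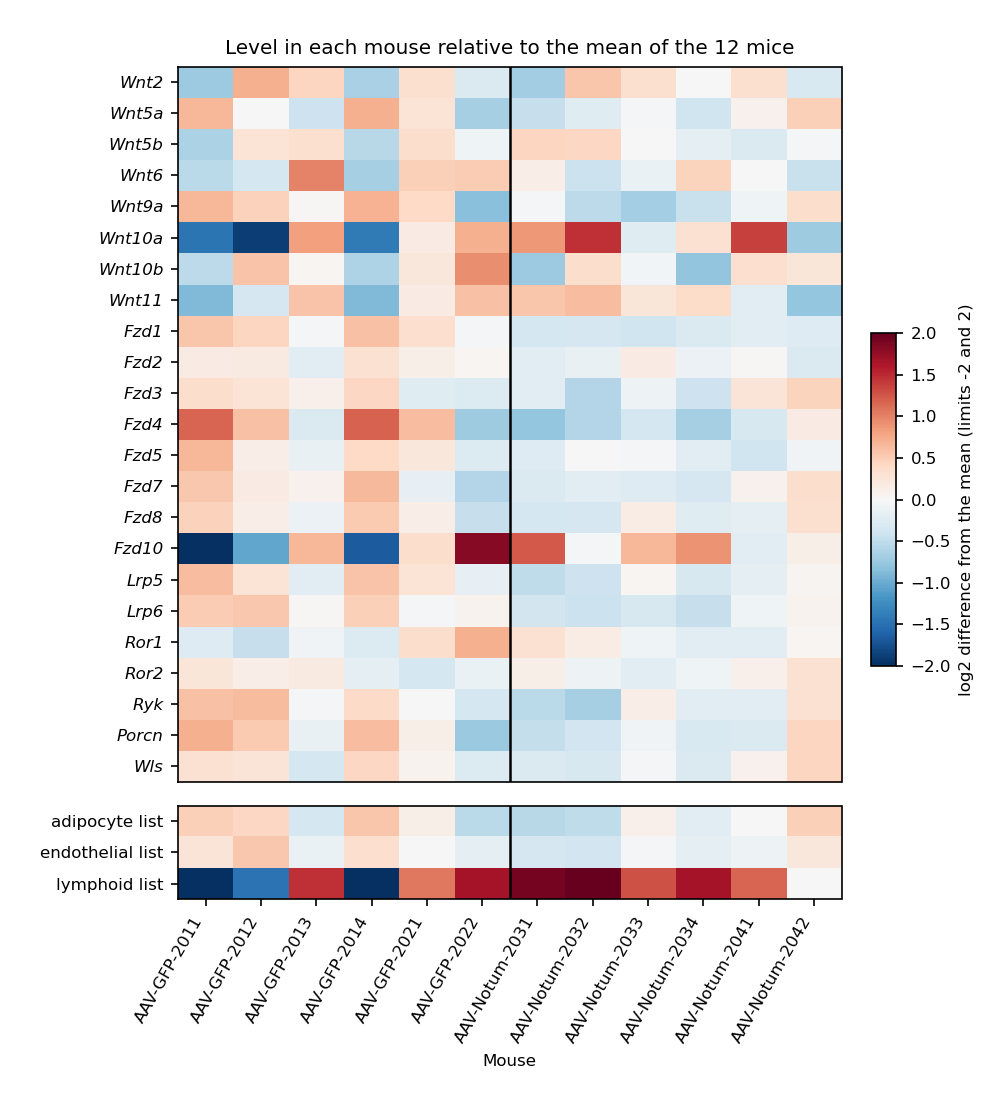
Level of the 23 tested members in each of the 12 mice as the log2 difference (of CPM + 0.1) from the mean of all mice, with the adipocyte, endothelial and lymphoid marker scores below and colours limited to 2 log2 units either way. Fzd4, Lrp5, Lrp6, Ryk and Porcn are high in AAV-GFP-2011, AAV-GFP-2012 and AAV-GFP-2014, where the lymphoid row is low and the adipocyte row high, and Fzd4 and Lrp5 are about as high as in AAV-GFP-2012 in AAV-GFP-2021, where the lymphoid row is not low.

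The rest of the pathway was read from 8 lists of other Wnt genes. Of 121 distinct genes 103 were tested, 13 were lower (12.6%, beside 9.54% of all genes) and 3 higher (2.91%, beside 4.64%) by an unadjusted p under 0.05, the sense of lower and higher in what follows. These shares lay near those of all genes, and the lists are described by their members only. After adjustment 0 passed in edgeR. Their median log2 fold change was -0.05. Secreted antagonists, which trap Wnts or block receptors, had 2 lower and 1 higher of 13 tested, and Sfrp5, a Frizzled-like decoy made by adipocytes, had the most negative log2 fold change of all 103. Sfrp5 was 50.8, 17.4, 9.95, 47.7, 35.9 and 3.63 CPM in AAV-GFP mice and 2.85 to 6.86 CPM in AAV-Notum mice, with only AAV-GFP-2022 inside the AAV-Notum range. Its log2 fold change was -2.72 (SE 0.55, unadjusted p = 3.33e-04, adjusted p = 0.102, edgeR; exact permutation p = 0.0108). The other antagonist that was lower, Sfrp1, had a log2 fold change of -0.49 (unadjusted p = 0.0474, edgeR). The one that was higher was Notum, the gene carried by the virus, whose rise rested on AAV-Notum-2032 and AAV-Notum-2041.

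Among genes that control receptor turnover, 1 of 8 tested was lower, the R-spondin receptor Lgr4 (log2 fold change -0.75, adjusted p = 0.249, edgeR). Among glypicans and other surface partners, 3 of 11 were lower by edgeR, namely Reck (log2 fold change -0.47), a partner in WNT7 signalling, Gpc3 (-0.73, adjusted p = 0.240) and Gpc1 (-0.35, adjusted p = 0.325). Among planar polarity genes, 3 of 13 were lower by edgeR, namely Daam1 (log2 fold change -0.34, adjusted p = 0.215), Vangl1 (-0.47, adjusted p = 0.230) and Rac1 (-0.17, adjusted p = 0.321). These lists had median log2 fold changes of -0.15, -0.12 and -0.10.

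Inside the cell both directions occurred. Of 22 cytoplasmic transducers, Dvl1, which binds Frizzled, was lower (log2 fold change -0.18, adjusted p = 0.297, edgeR), and Frat1 (0.34) and Frat2 (0.44), proteins that bind the kinase GSK3, were higher (adjusted p = 0.214 for both). Of 16 nuclear factors, the co-repressor Tle1 was lower (log2 fold change -0.34, adjusted p = 0.289, edgeR). Of 13 feedback targets, Nkd1, an antagonist induced by Wnt signalling, was lower at 3.53 ± 0.723 against 7.28 ± 2.90 CPM (SD, n = 6; log2 fold change -1.04, adjusted p = 0.140, edgeR). Wisp2, a secreted matrix protein, was also lower (log2 fold change -0.79, adjusted p = 0.214, edgeR), and the list's median was 0.24. Notum, the gene carried by the virus, was higher, which rested on AAV-Notum-2032 and AAV-Notum-2041. Of 11 genes that supply palmitoleate or carry WLS through the cell, 9 had a negative log2 fold change and 0 had an unadjusted p under 0.05 in edgeR, with a median of -0.14.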

How the data were processed

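RNA-seq of iWAT from 6 AAV-GFP and 6 AAV-Notum mice was analysed, with groups from GEO's labels. TruSeq libraries were read from a single end by the authors and aligned to mm10 with STAR 2.3.1, and DESeq2 was their test. The counting program, its annotation and its use of strand are not given in the sources used here. The deposited counts are raw reads per gene. The normalized values deposited by the authors are log2 values of reads over a size factor, plus 1, and inverting it returned whole reads (100% of values, within 0.02 of a whole number). That table rests on another count of the reads: of 36 members 33 were in it, and among the tested members totals differed by -8.54% to 2.37%.

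Counts were fitted with edgeR 4.0.16 in R 4.3.3 (filterByExpr, minimum count 10 and minimum total 15, TMM, quasi-likelihood test, two-sided), with Benjamini-Hochberg adjustment over 15585 genes and a threshold of 0.05. A gene is called lower or higher by an unadjusted or adjusted p under 0.05, as stated. The fits were checked on simulated counts. Exact permutation tests were two-sided, on mean log2 CPM (prior count 2). CPM were scaled to TMM library sizes. Exon lengths and positions are from GENCODE vM21, and promoter windows from RefSeq.

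Values in every mouse were given for members with an unadjusted p under 0.05 or no overlap, the member of each role highest per length, Porcn and Wls, and, of each pathway list, up to 4 genes of smallest p under 0.05 and Notum were named. Wnt9a, Wnt10a and Wnt11 were shown after their values were seen. Members and gene lists were chosen with earlier results of these data known. Alternatives were DESeq2 1.42.0, limma-voom (limma 3.58.1), RLE size factors, 2 other low-count filters, the RNA integrity number, the lymphoid score or (added after the data were seen) the adipocyte score as a covariate, the recovered reads, and mice left out. AAV-GFP-2011 and AAV-GFP-2014 were left out together for the lymphoid scores seen in these data. Each mouse gave 14711113 to 21618860 counts, and members with few reads carry more counting error. Figures were drawn with matplotlib 3.10.9.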

Additional observations from a re-analysis of the deposited data

Results flagged for a closer look

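Of 46 groups of 6 mice (each of 23 tested members in each group), 1 held a mouse far from the others. Porcn was 13.5 CPM in AAV-Notum-2042, against 7.22 to 9.55 CPM in the other AAV-Notum mice. The gap to the nearest mouse was 0.631 of the group's range, above Dixon's 95% critical value for 6 values. Chance gives such a mouse in about 1 in 20 groups.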

How the results depend on the processing

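No paired analysis was possible because the AAV-GFP and AAV-Notum mice share no mouse numbers.

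The count of members lower at an unadjusted p under 0.05 was 5 in the reported fit, 3 with the lymphoid score and 2 without AAV-GFP-2011 and AAV-GFP-2014 (4 to 8 with 1 mouse left out). Members lower after adjustment numbered 0 in the reported fit and 2 with DESeq2 or the adipocyte score (0 to 1 with 1 mouse left out). Over all genes, 8 were lower and 0 higher after adjustment in the reported fit. The numbers lower and higher were 367 and 84 with DESeq2, 13 and 1 with RLE size factors, 14 and 1 with at least 10 counts in every mouse, 168 and 31 with the adipocyte score, and 1 and 0 without AAV-GFP-2011 and AAV-GFP-2014. They were 4 lower with the lymphoid score, 5 lower with no filter, 10 lower and 1 higher with the recovered reads, and 1 to 146 lower and 0 to 12 higher with 1 mouse left out. DESeq2 and edgeR thus differed by more in calls than in fold changes, and the cause was not tested.

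Of 228 fold changes of members under the alternatives, 200 kept their direction and their side of an adjusted p of 0.05, 4 passed it newly and 24 changed sign, in 10 members. With the RNA integrity number, Wnt2 was -0.14 and Wnt5b -0.00989. With the adipocyte score, Wnt2 was -0.0101, Wnt5a 0.0230, Wnt5b -0.0259, Wnt11 -0.0375 and Wls 0.0175. With the lymphoid score, Wnt2 was -0.27, Wnt5a 0.21, Wnt5b -0.21, Wnt11 -0.30, Fzd3 0.0687, Fzd7 0.12, Fzd8 0.0678, Fzd10 -0.50, Porcn 0.0297 and Wls 0.13. Without AAV-GFP-2011 and AAV-GFP-2014, Wnt2 was -0.25, Wnt5a 0.0872, Wnt5b -0.15, Wnt11 -0.0879, Fzd7 0.00327, Fzd10 -0.25 and Wls 0.00594. With 1 mouse left out, Wnt2 ran from -0.0928 to 0.21, Wnt5b from -0.0131 to 0.19, Ror1 from -0.14 to 0.12 and Ror2 from -0.0320 to 0.0974. No reversal occurred in Fzd1, Fzd4, Fzd5, Lrp5 or Lrp6, although Fzd4, Fzd5 and Lrp5 lost an unadjusted p under 0.05 with the lymphoid score and without AAV-GFP-2011 and AAV-GFP-2014.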
